A study of Homo sapiens with 38 samples.

Results

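Transcripts of the integrin and laminin subunit genes were followed in A375 melanoma cells and in a drug-resistant A375 clone under RAF and MEK inhibitors. Members were chosen by symbol, as ITGA or ITGB genes with a number or with D, E, L, M, V or X, and as LAMA, LAMB or LAMC genes with a number. Earlier results of these data were known when they were chosen. A gene counted where at least 1 probe set of the array named it and no other gene, which gave 35 genes of 19775. They comprised 18 integrin alpha, 7 integrin beta, 4 laminin alpha, 4 laminin beta and 2 laminin gamma genes, covered by 95 probe sets. Each gene was read from its probe set with the highest mean log2 signal. Further subunit genes of both families were not analysed here.

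Laminins are large trimeric glycoproteins of the basement membrane, each built from an alpha, a beta and a gamma chain. Integrins are receptors that span the plasma membrane as one alpha and one beta chain, bind laminins, collagens or proteins with an Arg-Gly-Asp (RGD) motif, and connect them through talin, kindlin and focal adhesion kinase to actin. In melanoma, integrins are known for their part in adhesion, migration and survival signalling, which feeds into the same RAF, MEK and ERK cascade that the drugs inhibit.

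The data were 38 one-colour Affymetrix arrays of human cells, in 14 groups of line and drug after 24 h of exposure. The resistant cells, 16R6-4, are a clone derived from A375 that had acquired resistance to GSK436 (GSK2118436, dabrafenib), an inhibitor of RAF kinase, and the parental cells are the A375 line itself. GSK212 (GSK1120212, trametinib) is an inhibitor of MEK, which phosphorylates ERK. Resistant cells received 0.1 µM GSK436, 1 µM GSK436, 10 nM GSK212, 30 nM GSK212, 10 nM GSK212 with 0.1 µM GSK436 (the 0.1 µM combination) or 10 nM GSK212 with 1 µM GSK436 (the 1 µM combination), with 3 arrays each, against 2 arrays with DMSO. Parental cells received the same 6 treatments, with 2 arrays each for both GSK436 doses and for 30 nM GSK212, and 3 each for 10 nM GSK212 and both combinations, against 3 arrays with DMSO. The resistant cells are 1 clone, so a difference between the lines is a difference between that clone and its parent. Nothing in the labels tells whether arrays of a group were separate cultures, so each p measures the spread between these samples only, and the small number of arrays limits the precision.

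Values are MAS5 signals, the linear intensities that the authors deposited. A change is the log2 fold change of signal plus 2.8 with its standard error (SE), from a limma fit over 17986 genes, and p was adjusted over them within a comparison by Benjamini and Hochberg. A call needed both an adjusted p under 0.05 and a log2 change of 1 or more in size. The words "rose" and "fell" are used for called changes. A signal of 34.88, the median of all probe sets and arrays, serves as a mark of a low signal. Levels of different genes are not compared, since probe sets differ in response.

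The drugs' effect on ERK output was checked with DUSP6, an ERK-induced phosphatase. DUSP6 changed by -0.14 and -0.79 with the GSK436 doses in resistant cells (limma adjusted p = 0.977 and 1). It fell with the other 4 treatments there (-4.68 to -6.60) and with all 6 treatments in parental cells (-4.83 to -7.56). Of 9 measured melanocyte lineage markers, 1 had a median signal over 34.88 in resistant cells (MITF) and 5 in parental cells (MITF, SOX10, S100B, S100A1 and MIA), while the pigment genes PMEL, MLANA, TYR and TYRP1 did not in either line. The 8 leukocyte markers summed to 134.3 to 447.9 with the drugs and 125.6 to 134 with DMSO in resistant cells. In parental cells they summed to 170.9 to 577.3 with the drugs and 170.8 to 257.9 with DMSO. HBB had a median over 34.88 in both lines, CD2 and LYZ in parental cells only, and PTPRC, CD3E, MS4A1, CD14 and ITGAM in neither. The 7 fibroblast markers summed to 246 to 532.5 with GSK212 or a combination, 71.6 to 345 with GSK436 and 82.6 to 97.4 with DMSO in resistant cells, and to 381 to 794 with the drugs and 112 to 210.2 with DMSO in parental cells. COL1A1 and LUM had medians over 34.88 in both lines, DCN and THY1 in parental cells only, and COL1A2, COL3A1 and PDGFRA in neither. The 7 epithelial markers summed to 7465 to 13853 in resistant and 4374 to 8902 in parental arrays, with KRT8 and KRT18 over 34.88 in both lines, KRT5 and KRT14 in parental cells only, and EPCAM, CDH1 and ESRP1 in neither. The 5 endothelial markers summed to 50.55 to 177 with the drugs and 35.2 to 54.75 with DMSO in resistant cells, and to 60.6 to 237 with the drugs and 49.2 to 90.01 with DMSO in parental cells. Of these PECAM1 had a median over 34.88 in both lines, and VWF, CDH5, KDR and TEK in neither. The part of these markers in the results was not tested. In such bulk samples fewer cells of a type and less RNA per cell cannot be told apart. The ratio of 3' to 5' actin probe sets, a sign of RNA quality, ran from 3.72 to 45.0 and exceeded 20 on 15 arrays, among them all 4 parental GSK436 arrays and none of the 5 DMSO arrays. The median of all genes moved by up to 0.39 with a drug as deposited, and by -0.43 to -0.12 in parental and -0.30 to -0.19 in resistant cells once each array was centred on its own median.

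In all, 15 of the 35 genes were called in at least 1 of the 13 comparisons, the clone against its parent and 6 treatments against DMSO in each line. That share, 42.9%, stands beside 34.9% of all genes called in at least 1 of them, and is near the background. Both families changed in both lines. ITGB4, ITGB8 and LAMB2 rose, and ITGA2, ITGA6 and ITGB5 fell, with at least 1 treatment in resistant and in parental cells. ITGB7 rose and LAMB3 fell in resistant cells, and LAMA4 and LAMA5 rose and ITGA4, ITGB1, ITGB3 and LAMC1 fell in parental cells. LAMA1 fell in resistant cells with the combinations and rose in parental cells with 1 µM GSK436. Of the 18 alpha integrins 0 rose with a drug. Per treatment 0.00556% to 11.8% of all genes were called higher, so 0 of 18 is near the background. Of 420 tests of a gene against DMSO, 73 were calls, and the shares of all genes are given for each comparison below. In all 73 the arrays of the 2 groups did not overlap. With 2 or 3 arrays in a group a call makes this likely, so it is no further support. Another 20 of the 420 tests had an adjusted p under 0.05 with a log2 change under 1.

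**Figure D1:**
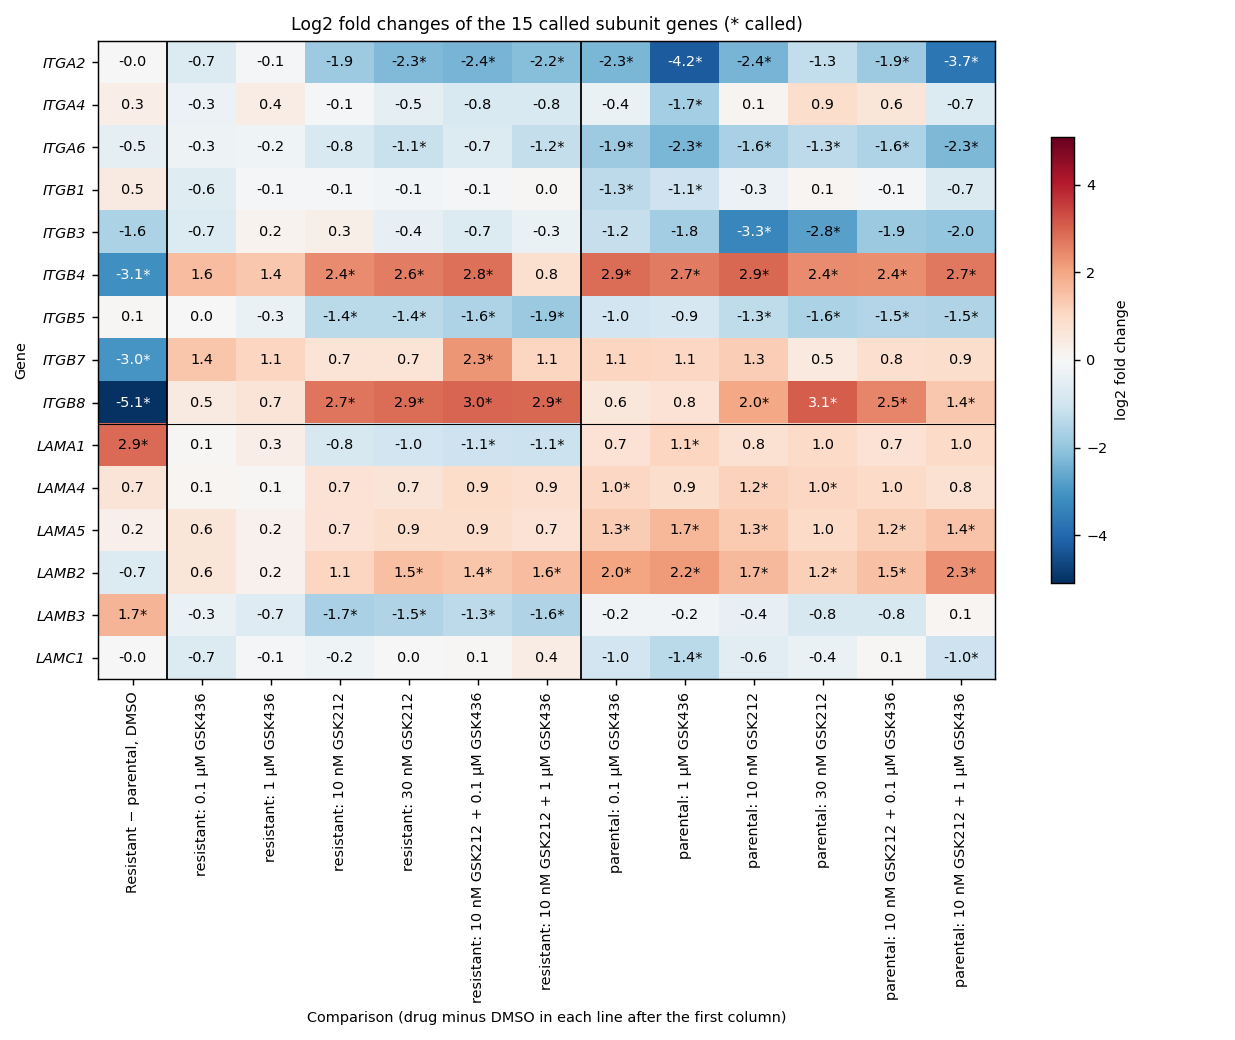
Log2 fold changes (colour and printed value) of the 15 called subunit genes, one per row, in the 13 comparisons on the horizontal axis, with an asterisk at each call. The GSK436 columns of resistant cells hold no call, while ITGB4 and LAMB2 were called with all 6 treatments in parental cells.

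In resistant cells neither GSK436 dose called a member. Of all genes 0.00556% were called with 0.1 µM (0.00556% higher, 0% lower) and 0.0778% with 1 µM (0.0723% higher, 0.00556% lower). Before adjustment limma gave 3 and 2 members an unadjusted p under 0.05. With 10 nM GSK212, 4 of 35 members were called (2 higher, 2 lower), against 2.79% of all genes (2.17% higher, 0.617% lower). With 30 nM GSK212, 7 were called (3 higher, 4 lower), against 4.33% of all genes (3.38% higher, 0.945% lower). The 0.1 µM combination called 8 (4 higher, 4 lower), against 4.88% (3.85% higher, 1.03% lower). The 1 µM combination called 7 (2 higher, 5 lower), against 6.58% of all genes (4.88% higher, 1.71% lower). All 6 comparisons of a line use the same DMSO arrays. The shares of members, 11.4% to 22.9%, exceeded those of all genes in these 4 comparisons, while the members' median change of 0.09 to 0.21 lay near that of all genes, 0.17 to 0.22. Centred on the array medians, the splits of higher and lower were 2 and 3, 3 and 5, 2 and 4, and 2 and 5.

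In parental cells 7 of 35 members were called with 0.1 µM GSK436 (4 higher, 3 lower), against 17.9% of all genes (11.5% higher, 6.42% lower). With 1 µM GSK436 9 were called (4 higher, 5 lower), against 19.5% (11.8% higher, 7.71% lower). These shares, 20% and 25.7%, lie near the background and are no result about the members. With 10 nM GSK212, 9 were called (5 higher, 4 lower), against 11.8% of all genes (7.71% higher, 4.05% lower). With 30 nM GSK212 7 were called (4 higher, 3 lower), against 9.94% (6.51% higher, 3.44% lower). The 0.1 µM combination called 7 (4 higher, 3 lower), against 10.6% (7% higher, 3.64% lower), and the 1 µM combination 8 (4 higher, 4 lower), against 17% of all genes (11.2% higher, 5.76% lower). The members' median change of 0.09 to 0.43 stood beside 0.17 to 0.39 for all genes. Centring changed the splits to 2 higher and 5 lower, 2 and 10, 4 and 4, 2 and 5, 3 and 6, and 2 and 10, in the same order of treatments.

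**Figure D2:**
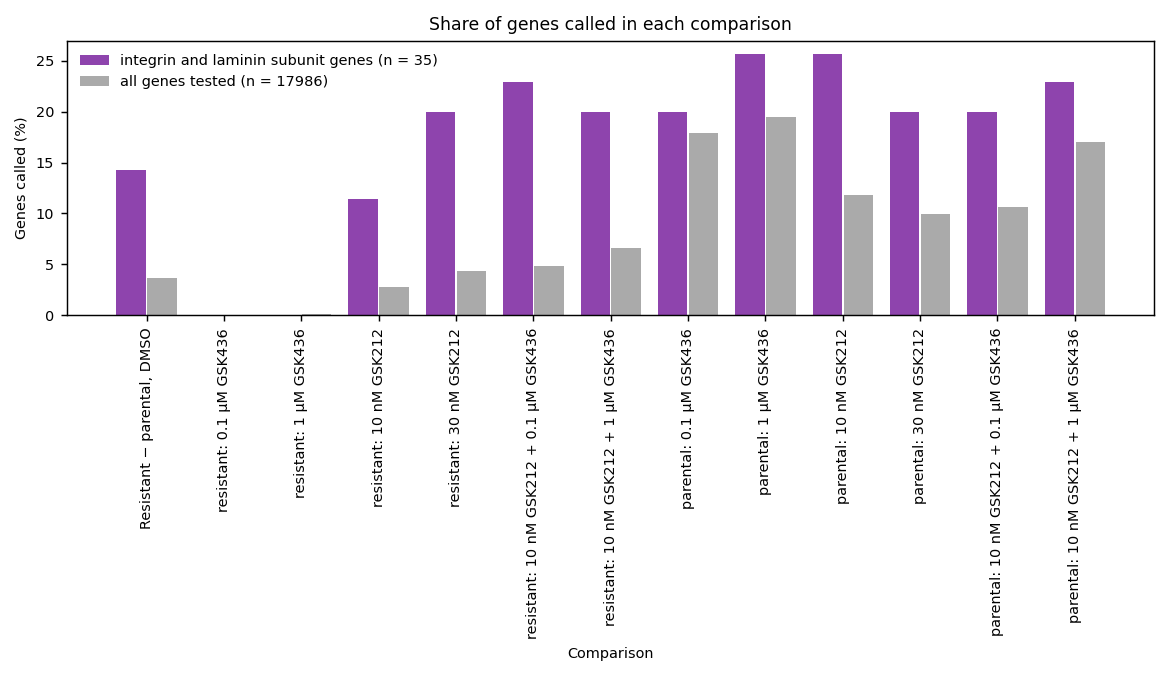
Percent of genes called in each of the 13 comparisons, for the 35 integrin and laminin subunit genes (purple bars) and for all 17986 genes tested (grey bars). The members' share was 22.9% against 4.88% with the 0.1 µM combination in resistant cells, and 20% against 17.9% with 0.1 µM GSK436 in parental cells.

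Promoter sequences of RefSeq (GRCh38.p14) were matched for 24 of the 35 genes, in 31 entries of which the 250 bases before the start site were searched. The AP-1 motif TGANTCA, which reads the same on both strands, is bound by FOS and JUN dimers. It occurred in 6.57% of 35116 promoters and among the members in 1 entry, the third of LAMB3, 67 bases before the start. The E-box CACGTG, also palindromic, is bound by basic helix-loop-helix factors such as MITF and MYC. It occurred in 6.34% of promoters and in 1 entry of the members, the first of ITGA6, 101 bases before the start. The 2 promoters with a motif are printed with it in capitals, beside those of ITGB8 and LAMB2, which rose in both lines and held neither motif. A match is a description of letters and no evidence of binding. The windows are LAMB3 chr1:209651375-209651624 (minus strand), ITGA6 chr2:172427086-172427335 (plus strand), ITGB8 chr7:20330650-20330899 (plus strand) and LAMB2 chr3:49133051-49133300 (minus strand).
LAMB3: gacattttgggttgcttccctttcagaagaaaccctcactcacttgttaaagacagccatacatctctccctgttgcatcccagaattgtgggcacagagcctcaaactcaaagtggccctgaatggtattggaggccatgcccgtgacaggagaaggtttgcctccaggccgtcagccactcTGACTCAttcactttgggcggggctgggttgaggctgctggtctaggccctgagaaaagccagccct
ITGA6: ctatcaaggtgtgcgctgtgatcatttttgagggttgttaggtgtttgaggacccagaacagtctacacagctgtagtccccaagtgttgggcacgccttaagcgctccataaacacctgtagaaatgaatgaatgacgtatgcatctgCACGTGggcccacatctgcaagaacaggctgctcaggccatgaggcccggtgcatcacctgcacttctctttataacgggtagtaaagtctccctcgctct
ITGB8: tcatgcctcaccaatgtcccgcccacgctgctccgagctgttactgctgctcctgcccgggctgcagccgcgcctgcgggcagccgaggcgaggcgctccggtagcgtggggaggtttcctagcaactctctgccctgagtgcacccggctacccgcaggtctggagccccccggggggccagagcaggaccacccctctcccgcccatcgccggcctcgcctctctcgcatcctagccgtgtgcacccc
LAMB2: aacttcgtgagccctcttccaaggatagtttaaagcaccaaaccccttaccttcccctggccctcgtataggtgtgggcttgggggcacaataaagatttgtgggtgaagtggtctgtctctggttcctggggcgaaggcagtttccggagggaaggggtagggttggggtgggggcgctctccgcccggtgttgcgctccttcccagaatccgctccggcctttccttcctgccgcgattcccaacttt

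The first comparison asked how the clone differs from its parent without drug. With DMSO, 5 of 35 members were called, against 3.65% of all genes (1.48% higher, 2.17% lower). Of these, 2 laminin genes were higher and 3 integrin beta genes lower in resistant cells, and these 3 had resistant signals under 34.88 with DMSO. LAMA1, the alpha chain of embryonic-type laminin, was higher by 2.89 ± 0.27 (adjusted p = 8.73e-10), and LAMB3, a beta chain of epidermal laminin, by 1.74 ± 0.31 (adjusted p = 0.000227). ITGB8, a partner of the alpha V chain that activates latent TGF-beta, was lower, at -5.06 ± 0.46 (adjusted p = 7.08e-10), with 8.42 and 10.6 in resistant and 594, 572 and 196 in parental arrays. Both resistant signals are under 34.88, and the size was -5.42 with nothing added and -4.43 with the 25th percentile added. ITGB4, which pairs with the ITGA6 product in the laminin receptor of hemidesmosomes, was lower, at -3.12 ± 0.53 (adjusted p = 0.000113), with 3.16 and 3.16 in resistant and 66.8, 31.9 and 54.4 in parental arrays. The resistant signals are near the 2.8 added, so the size of the ITGB4 difference rests on that number (-3.95 with nothing added, -2.18 with the 25th percentile added). ITGB7, a partner of the ITGA4 and ITGAE products on lymphocytes, had signals of 5.34 and 1.66 in resistant and 39.4, 48.2 and 50.9 in parental arrays. All 18 parental arrays but only 1 resistant array exceeded 34.88 for ITGB7, so it passed the filter on low values through the line in which it is higher. Its log2 difference of -3.01 ± 0.69 is therefore given as a description, and its size rests on the 2.8 added (-3.95 with nothing added, -2.07 with the 25th percentile added). The ITGB7 call also ended without resistant DMSO replicate 2 (-2.58), and the ITGB4 call ended when all of its probe sets were averaged (-0.93, adjusted p = 0.308).

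**Figure D3:**
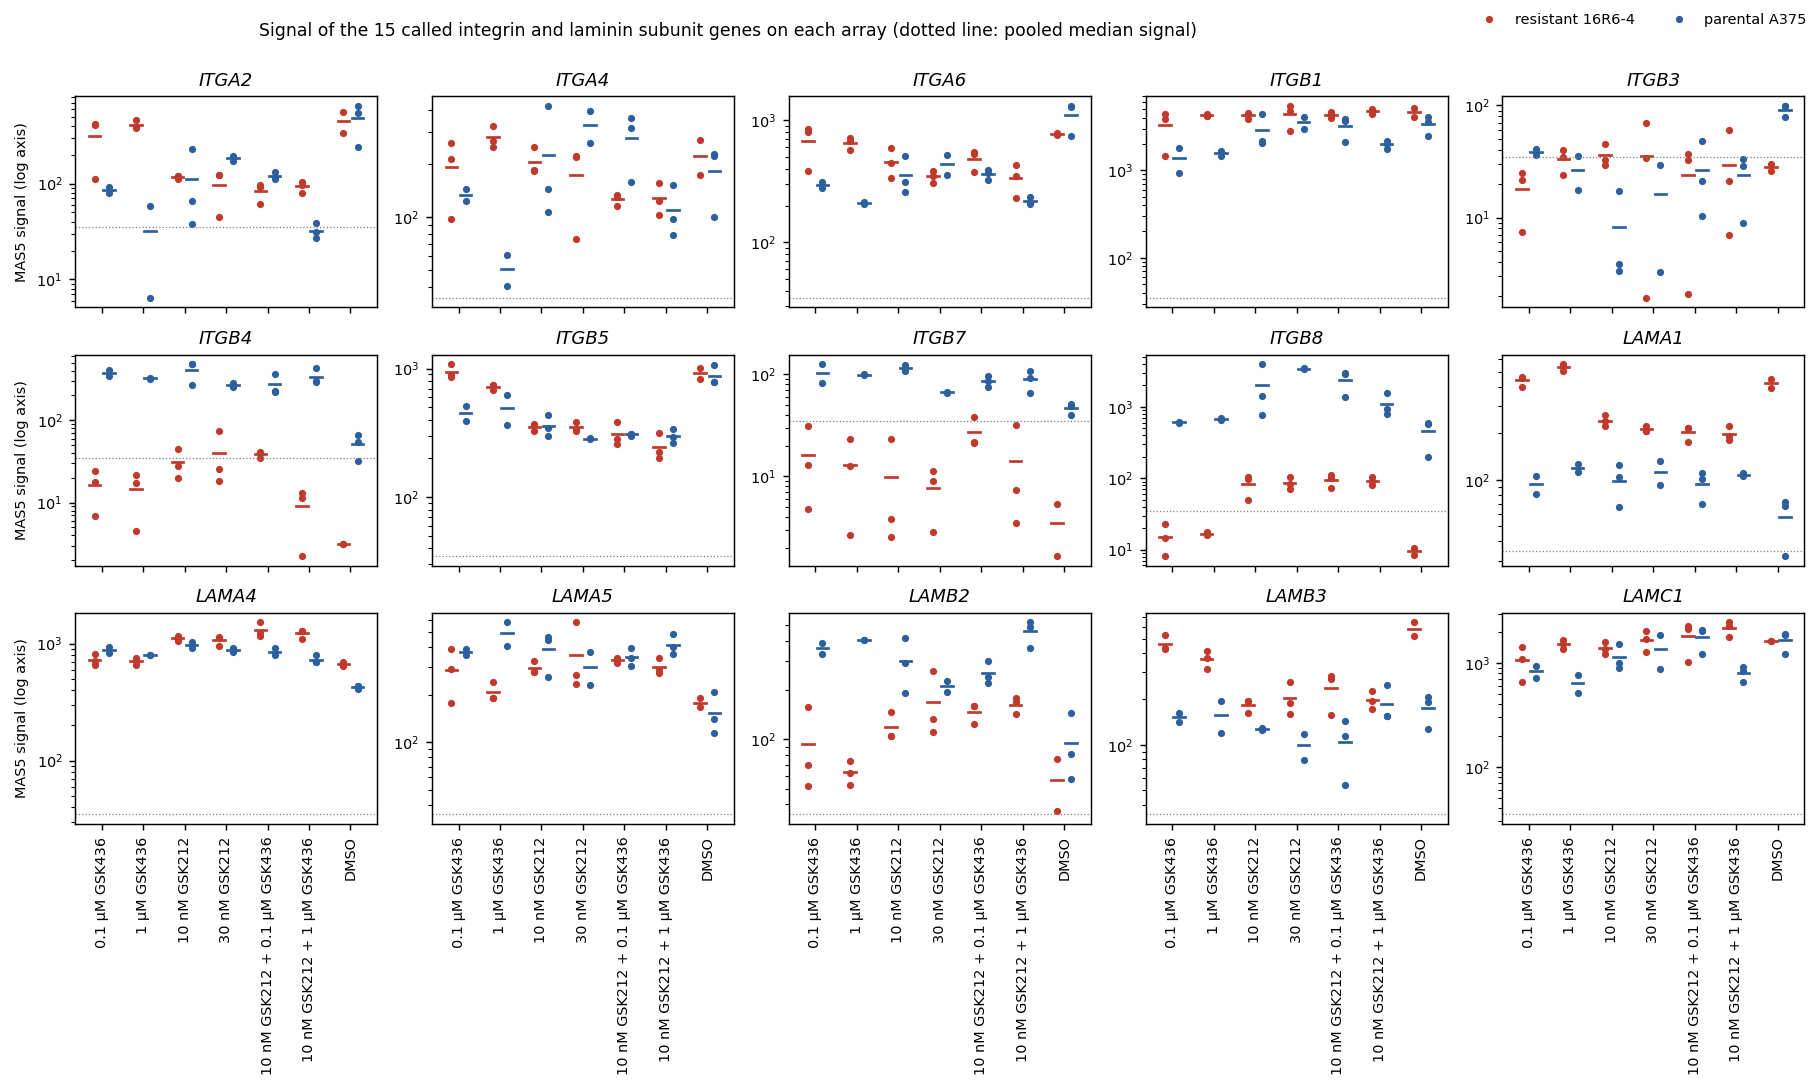
MAS5 signal (log axis) of the 15 called genes on each array, by treatment on the horizontal axis, with resistant arrays in red left of parental arrays in blue, short lines at group means and a dotted line at 34.88. LAMA1 is higher on every resistant array (175 to 559) than on any parental array (32.1 to 132), and ITGB8 lower (8.13 to 111, against 196 to 3983).

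Among the laminin alpha chains, LAMA1 was called in opposite directions in the lines, though with different treatments. In resistant cells LAMA1 gave signals of 395, 457 and 465 with 0.1 µM GSK436, 559, 533 and 505 with 1 µM GSK436, 261, 239 and 222 with 10 nM GSK212, 208, 221 and 207 with 30 nM GSK212, 175, 217 and 216 with the 0.1 µM combination, 181, 222 and 192 with the 1 µM combination, against 449.8 and 393 with DMSO. In parental cells LAMA1 gave 81.3 and 105 with 0.1 µM GSK436, 126 and 113 with 1 µM GSK436, 124, 66.4 and 105 with 10 nM GSK212, 92.2 and 132 with 30 nM GSK212, 70.1, 111 and 101 with the 0.1 µM combination, 105, 110.3 and 109 with the 1 µM combination, against 71.9, 32.1 and 67.9 with DMSO. All 12 resistant arrays that had GSK212 lay at 175 to 261, below the 8 others at 393 to 559, and the parental drug arrays at 66.4 to 132 overlapped the DMSO arrays, at 32.1 to 71.9, at their lower end. LAMA1 fell by 1.05 ± 0.27 with the 0.1 µM combination (adjusted p = 0.00935) and by 1.08 ± 0.27 with the 1 µM combination (adjusted p = 0.00557) in resistant cells. Parental cells showed a rise of 1.10 ± 0.27 with 1 µM GSK436 (adjusted p = 0.00212). That call ended on centring (0.38) and without DMSO replicate 2 (0.74), which held the lowest of its signals. It ended also with quantile normalization (0.74) and in a fit of only the groups compared (1.10, adjusted p = 0.0885). Both resistant calls ended without DMSO replicate 1 (-0.95 and -0.98), and the 0.1 µM call also without DMSO replicate 2 (-1.15, adjusted p = 0.054) or combination replicate 1 (-0.95). The mean of both LAMA1 probe sets ended all 3 calls (0.63 in parental, -1.30 and -0.75 in resistant cells).

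LAMA4 and LAMA5, the alpha chains of vascular and of widespread adult basement membrane laminins, rose in parental cells. LAMA4 gave 664, 812 and 705 with 0.1 µM GSK436, 761, 654 and 713 with 1 µM GSK436, 1129.5, 1064 and 1164 with 10 nM GSK212, 1133, 1122 and 955 with 30 nM GSK212, 1525, 1159 and 1241 with the 0.1 µM combination, 1091, 1295 and 1295 with the 1 µM combination, against 695 and 651 with DMSO in resistant cells. In parental cells LAMA4 gave 827 and 936 with 0.1 µM GSK436, 804 and 808 with 1 µM GSK436, 919, 1039 and 975 with 10 nM GSK212, 923 and 849 with 30 nM GSK212, 919, 798 and 831 with the 0.1 µM combination, 695, 801 and 697 with the 1 µM combination, against 436, 438 and 407 with DMSO. Every parental drug array (695 to 1039) lay above the DMSO arrays (407 to 438), and the resistant arrays with GSK212 (955 to 1525) lay above those without it (651 to 812). LAMA4 rose by 1.04 ± 0.14 with 0.1 µM GSK436 (adjusted p = 1.24e-06), 1.19 ± 0.12 with 10 nM GSK212 (adjusted p = 4.90e-09) and 1.05 ± 0.14 with 30 nM GSK212 (adjusted p = 8.71e-07). In resistant cells its changes of 0.66 to 0.95 with GSK212 and the combinations had adjusted p of 0.0016 at most and stayed under the fold threshold. Centring brought all 3 parental calls under the threshold (0.23 to 0.89), as did the mean of all 5 LAMA4 probe sets (0.52 to 0.73). The 0.1 µM GSK436 call also ended without replicate 3 (0.95) and with the actin ratio in the fit (0.93), and the 30 nM call without replicate 2 (0.99). The summed endothelial markers of parental cells were 138 to 160.4 with 0.1 µM GSK436 and 99.05 to 199 with 30 nM GSK212. With 10 nM GSK212 they were 60.6 to 118, which overlapped the 49.2 to 90.01 with DMSO. They reached the highest value with the 1 µM combination (127 to 237), where LAMA4 gave 695 to 801. Of these markers VWF, CDH5, KDR and TEK had parental medians at or under 34.88, and the part of the markers in the LAMA4 changes was not tested.

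LAMA5 gave 177, 290.2 and 391.6 with 0.1 µM GSK436, 239.9, 192 and 191 with 1 µM GSK436, 278, 280.5 and 329.7 with 10 nM GSK212, 577, 265 and 235 with 30 nM GSK212, 318, 342 and 338 with the 0.1 µM combination, 273, 289 and 344 with the 1 µM combination, against 189.8 and 166 with DMSO in resistant cells. In parental cells LAMA5 gave 358 and 388 with 0.1 µM GSK436, 405 and 576 with 1 µM GSK436, 447, 465 and 259.6 with 10 nM GSK212, 230.0 and 373 with 30 nM GSK212, 398, 343 and 306 with the 0.1 µM combination, 404, 361 and 483 with the 1 µM combination, against 115, 139 and 209 with DMSO. All 15 parental drug arrays (230.0 to 576) lay above the DMSO arrays (115 to 209). The resistant arrays with GSK212 (235 to 577) also lay above the DMSO pair of their line (166 and 189.8), while the resistant 0.1 µM GSK436 arrays overlapped it. LAMA5 rose with 5 of 6 parental treatments, by 1.20 ± 0.28 with the 0.1 µM combination (adjusted p = 0.00162) up to 1.67 ± 0.31 with 1 µM GSK436 (adjusted p = 0.000108), and its change with 30 nM GSK212 was 0.96 ± 0.31. No change in resistant cells was called (0.21 to 0.89). Centring left 1 of the 5 calls, that with 10 nM GSK212 (range 0.49 to 1.03), and the 0.1 µM GSK436 call also ended with the actin ratio in the fit (0.66). LAMA2, the alpha chain of muscle laminin, had a median under 34.88 and was never called.

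Among the laminin beta chains, LAMB2, known from synapses and the kidney filter, rose in both lines. LAMB2 gave 69.9, 52.1 and 158 with 0.1 µM GSK436, 73.8, 62.6 and 52.9 with 1 µM GSK436, 148, 104 and 105 with 10 nM GSK212, 263, 132 and 111 with 30 nM GSK212, 159, 160.4 and 124 with the 0.1 µM combination, 168, 142 and 179.5 with the 1 µM combination, against 76.2 and 36.4 with DMSO in resistant cells. In parental cells LAMB2 gave 390.0 and 332.4 with 0.1 µM GSK436, 404 and 408 with 1 µM GSK436, 419, 294 and 191 with 10 nM GSK212, 195 and 227 with 30 nM GSK212, 302, 242 and 219.8 with the 0.1 µM combination, 520.0, 363 and 488 with the 1 µM combination, against 81.9, 56.9 and 145 with DMSO. All 12 resistant arrays with GSK212 (104.5 to 263) and all 15 parental drug arrays (191 to 520.0) lay above the DMSO arrays of their line, and the resistant GSK436 arrays overlapped theirs. LAMB2 rose in resistant cells by 1.52 ± 0.39 with 30 nM GSK212, 1.43 ± 0.39 with the 0.1 µM combination and 1.57 ± 0.39 with the 1 µM combination (adjusted p = 0.0102, 0.0152 and 0.00511). Parental cells showed a rise with every treatment, by 1.23 ± 0.39 with 30 nM GSK212 (adjusted p = 0.0239) up to 2.32 ± 0.35 with the 1 µM combination (adjusted p = 3.37e-06). All 3 resistant calls ended without DMSO replicate 2 (0.92 to 1.06), which held the lowest signal. The 30 nM call ended also without 30 nM replicate 1 (1.16, adjusted p = 0.0973), the array with an actin ratio of 45.0, in a fit of only the groups compared (1.52, adjusted p = 0.173) and with quantile normalization (1.19, adjusted p = 0.0501). The 0.1 µM combination call ended too without combination replicate 1 or 2 (1.37 and 1.36), on centring (0.98), with quantile normalization (1.06) and with the actin ratio in the fit (0.93). The parental 30 nM call ended with the actin ratio in the fit (0.99), on centring (0.81), without DMSO replicate 1 or 2 (1.18 and 0.93) and without 30 nM replicate 2 or 3 (1.34 and 1.13). It ended also in a fit of only the groups compared (1.23) and with quantile normalization (1.02).

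LAMB3 fell in resistant cells with every treatment that held GSK212. It gave 433, 429 and 532 with 0.1 µM GSK436, 318, 371 and 414 with 1 µM GSK436, 161, 196 and 193 with 10 nM GSK212, 259, 159 and 188 with 30 nM GSK212, 156, 270.0 and 285 with the 0.1 µM combination, 226, 172 and 194 with the 1 µM combination, against 643 and 524 with DMSO in resistant cells. In parental cells LAMB3 gave 142 and 163 with 0.1 µM GSK436, 194 and 119.6 with 1 µM GSK436, 126, 128 and 127 with 10 nM GSK212, 79.6 and 118 with 30 nM GSK212, 144, 115 and 54.5 with the 0.1 µM combination, 249, 156 and 154 with the 1 µM combination, against 191, 127 and 207 with DMSO. The 12 resistant arrays with GSK212 (156 to 285) lay below the 8 others (318 to 643) and within or just over the range of the parental arrays (54.5 to 249). LAMB3 fell by 1.65 ± 0.31 with 10 nM GSK212 (adjusted p = 0.000777), 1.54 ± 0.31 with 30 nM GSK212 (adjusted p = 0.0012), 1.33 ± 0.31 with the 0.1 µM combination (adjusted p = 0.00481) and 1.55 ± 0.31 with the 1 µM combination (adjusted p = 0.000659). In parental cells its changes ran from -0.81 to 0.08 and none was called. The gene has 1 probe set. The 0.1 µM combination call ended without DMSO replicate 1 (-1.18, adjusted p = 0.088).

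LAMB1 and LAMC1 are the most widely used beta and gamma chains. LAMB1 (792 to 2424 over all arrays) was called in no comparison, with changes of -0.43 to 0.05 in resistant and -0.54 to 0.36 in parental cells. LAMC1 (512 to 2482) fell in parental cells by 1.39 ± 0.33 with 1 µM GSK436 (adjusted p = 0.00146) and 1.04 ± 0.29 with the 1 µM combination (adjusted p = 0.00681). Its signals there were 766 and 512 with 1 µM GSK436 and 656, 924 and 832 with the 1 µM combination, against 1883, 1911 and 1237 with DMSO, without overlap. Both LAMC1 calls fell under the fold threshold with the actin ratio in the fit (-0.80 and -0.56) and with the mean of its 2 probe sets (-0.80 and -0.62). The 1 µM GSK436 call ended without replicate 3 (-1.10, adjusted p = 0.07). The 1 µM combination call ended without DMSO replicate 1 or 2 (-0.95 and -0.94) or combination replicate 1 (-0.91), with quantile normalization (-0.89) and without arrays with an actin ratio over 20 (-0.83). LAMB4 and LAMC3 had medians under 34.88 and were never called.

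Of the laminin-binding integrin chains, ITGA6 fell and ITGB4 rose in both lines. Their products form one receptor. The ITGA6 chain also pairs with ITGB1. ITGA6 gave 804, 847 and 383 with 0.1 µM GSK436, 574, 718 and 679.5 with 1 µM GSK436, 334, 594 and 444 with 10 nM GSK212, 304, 352 and 388 with 30 nM GSK212, 529, 376 and 554 with the 0.1 µM combination, 231, 348 and 432 with the 1 µM combination, against 789.9 and 754 with DMSO in resistant cells. In parental cells ITGA6 gave 279 and 310.4 with 0.1 µM GSK436, 206 and 214 with 1 µM GSK436, 259.5, 311 and 508 with 10 nM GSK212, 519 and 359 with 30 nM GSK212, 368, 389.8 and 325 with the 0.1 µM combination, 235, 210.3 and 208 with the 1 µM combination, against 1315, 1283 and 743 with DMSO. All 15 parental drug arrays (206 to 519) lay below the DMSO arrays (743 to 1315), and so did the 12 resistant arrays with GSK212 (231 to 594, against 754 and 789.9), whereas resistant GSK436 arrays reached 847. ITGA6 fell in resistant cells by 1.15 ± 0.30 with 30 nM GSK212 (adjusted p = 0.0125) and 1.24 ± 0.30 with the 1 µM combination (adjusted p = 0.00443). The parental fall was called with all 6 treatments, by 1.32 ± 0.30 with 30 nM GSK212 (adjusted p = 0.00161) up to 2.35 ± 0.30 with 1 µM GSK436 (adjusted p = 4.08e-07). Both resistant calls ended without DMSO replicate 1 (-1.12 and -1.20). The 1 µM combination call ended without combination replicate 1 (-0.99), and the resistant 30 nM call without DMSO replicate 2 (-1.18), 30 nM replicate 1 (-1.06) or with the actin ratio in the fit (-0.96). The parental 30 nM call ended without replicate 3 (-1.05, adjusted p = 0.0846). Both 30 nM calls of ITGA6 ended without all arrays with an actin ratio over 20 (-1.06 and -1.05). Its other probe set had the same sign in all 8 calls.

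ITGB4 gave 17.6, 24.5 and 6.95 with 0.1 µM GSK436, 17.2, 21.6 and 4.51 with 1 µM GSK436, 44.5, 28.2 and 19.8 with 10 nM GSK212, 74.5, 25.8 and 18.4 with 30 nM GSK212, 39.8, 41.6 and 35.04 with the 0.1 µM combination, 13.2, 2.25 and 11.5 with the 1 µM combination, against 3.16 and 3.16 with DMSO in resistant cells. In parental cells ITGB4 gave 403 and 346 with 0.1 µM GSK436, 329 and 318 with 1 µM GSK436, 479.6, 477 and 264 with 10 nM GSK212, 254 and 287 with 30 nM GSK212, 369, 225 and 223 with the 0.1 µM combination, 424, 288 and 299 with the 1 µM combination, against 66.8, 31.9 and 54.4 with DMSO. Every parental drug array (223 to 480) exceeded the DMSO arrays (31.9 to 66.8), whereas the resistant arrays stayed between 2.25 and 74.5, the highest of them the 30 nM array with an actin ratio of 45.0. ITGB4 rose in resistant cells by 2.43 ± 0.53 with 10 nM GSK212, 2.60 ± 0.53 with 30 nM GSK212 and 2.80 ± 0.53 with the 0.1 µM combination (adjusted p = 0.00402, 0.00128 and 0.000474). In parental cells it rose with all 6 treatments, by 2.37 ± 0.48 with the 0.1 µM combination (adjusted p = 0.000328) up to 2.94 ± 0.48 with 10 nM GSK212 (adjusted p = 1.49e-05). The resistant DMSO signals of 3.16 lie close to the 2.8 added before taking logs, so the resistant changes rest in part on that number. With the mean of its 5 probe sets ITGB4 lost all 3 resistant calls (0.58 to 0.91) and 3 of 6 parental calls (range 0.68 to 1.26). The resistant 10 nM call ended without DMSO replicate 2 (adjusted p = 0.0604). Without arrays with an actin ratio over 20 the resistant 10 nM (2.38, adjusted p = 0.143) and 30 nM calls (2.05, adjusted p = 0.0526) ended, as they did in a fit of only the groups compared (2.43 and 2.60, adjusted p = 0.0656 and 0.143). ITGA3, the alpha chain of another laminin receptor, ran from 108 to 333 and was called in no comparison. ITGA7 had a median of 33.7 and was never called.

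ITGA2, the alpha chain of the collagen and laminin receptor formed with ITGB1, fell in both lines. ITGA2 gave 422, 409.9 and 112 with 0.1 µM GSK436, 391.7, 379.8 and 464 with 1 µM GSK436, 113, 121 and 119 with 10 nM GSK212, 44.4, 124 and 122 with 30 nM GSK212, 92.6, 97.4 and 61.2 with the 0.1 µM combination, 105, 97.7 and 80.4 with the 1 µM combination, against 334 and 561 with DMSO in resistant cells. In parental cells ITGA2 gave 92.9 and 80.6 with 0.1 µM GSK436, 58.1 and 6.40 with 1 µM GSK436, 37.8, 66.5 and 228 with 10 nM GSK212, 173 and 194 with 30 nM GSK212, 112, 133 and 117 with the 0.1 µM combination, 27.0, 31.1 and 38.9 with the 1 µM combination, against 648, 550.4 and 243 with DMSO. The 12 resistant arrays with GSK212 (44.4 to 124) lay below the DMSO arrays (334 and 561), and of the 6 resistant GSK436 arrays only 0.1 µM replicate 3 (112) was as low. That array had an actin ratio of 37.4. All 15 parental drug arrays (6.40 to 228) lay below the DMSO arrays (243 to 648). ITGA2 fell in resistant cells by 2.26 ± 0.59 with 30 nM GSK212 (adjusted p = 0.0133), 2.36 ± 0.59 with the 0.1 µM combination (adjusted p = 0.00843) and 2.18 ± 0.59 with the 1 µM combination (adjusted p = 0.012). The parental fall was called with 5 of 6 treatments, by 1.85 ± 0.53 with the 0.1 µM combination (adjusted p = 0.0106) up to 4.23 ± 0.59 with 1 µM GSK436 (adjusted p = 1.96e-06). All 3 resistant calls ended without DMSO replicate 2 (-1.80 to -1.99), the 30 nM one also without 30 nM replicate 1, the only 30 nM array there with an actin ratio over 20 (-1.79). The parental 0.1 µM combination call ended without DMSO replicate 1 or 2 (-1.58 and -1.70). The parental 0.1 µM GSK436 call ended with the actin ratio in the fit (-1.56, adjusted p = 0.0591). The other collagen receptor chains, ITGA1, ITGA10 and ITGA11, were never called.

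Of the chains in RGD receptors, ITGB5 fell and ITGB8 rose wherever GSK212 was given, in both lines. Both pair with ITGAV, which ran from 249 to 1282 over all arrays and was called in no comparison (-0.28 to 0.57 in resistant and -0.88 to 0.84 in parental cells). ITGB5 gave 863, 891 and 1083 with 0.1 µM GSK436, 751, 739.9 and 678 with 1 µM GSK436, 366, 373 and 325 with 10 nM GSK212, 385, 339.6 and 329.5 with 30 nM GSK212, 259, 383 and 282 with the 0.1 µM combination, 202, 314 and 226 with the 1 µM combination, against 1007 and 835 with DMSO in resistant cells. In parental cells ITGB5 gave 391 and 509 with 0.1 µM GSK436, 367 and 622 with 1 µM GSK436, 439, 343 and 299 with 10 nM GSK212, 281 and 288 with 30 nM GSK212, 311, 312 and 301 with the 0.1 µM combination, 262, 295 and 339.5 with the 1 µM combination, against 787, 787 and 1069 with DMSO. The 23 arrays with GSK212 (202 to 439) lay below the 5 DMSO arrays (787 to 1069). The parental GSK436 arrays (367 to 622) overlapped the arrays with GSK212 from above. They too lay below the DMSO arrays of that line (787 to 1069), without a call. Every parental change of ITGB5 was -0.86 or lower. The resistant GSK436 arrays reached from 678 to 1083. ITGB5 fell by 1.37 ± 0.21, 1.38 ± 0.21, 1.59 ± 0.21 and 1.90 ± 0.21 with 10 nM GSK212, 30 nM GSK212, the 0.1 µM and the 1 µM combination in resistant cells, with adjusted p of 6.04e-05 at most. In parental cells it fell by 1.29 ± 0.19 with 10 nM GSK212 up to 1.61 ± 0.21 with 30 nM GSK212 over the same 4 treatments, with adjusted p of 3.67e-06 at most. With the mean of its 4 probe sets 1 of these 8 calls was left, that with 30 nM GSK212 in resistant cells (range -1.12 to -0.55 in resistant and -0.86 to -0.53 in parental cells).

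ITGB8 gave 23.1, 8.13 and 14.3 with 0.1 µM GSK436, 16.4, 17.6 and 16.1 with 1 µM GSK436, 50.2, 104 and 96.1 with 10 nM GSK212, 84.2, 105 and 71.2 with 30 nM GSK212, 111, 73.5 and 102 with the 0.1 µM combination, 81.0, 104 and 91.2 with the 1 µM combination, against 8.42 and 10.6 with DMSO in resistant cells. In parental cells ITGB8 gave 602 and 612 with 0.1 µM GSK436, 709 and 666 with 1 µM GSK436, 760.2, 1406 and 3983 with 10 nM GSK212, 3559 and 3348 with 30 nM GSK212, 1382, 2887 and 2988 with the 0.1 µM combination, 788, 1549 and 939 with the 1 µM combination, against 594, 572 and 196 with DMSO. Resistant arrays with GSK212 (50.2 to 111) lay above those without (8.13 to 23.1), parental arrays with GSK212 (760.2 to 3983) above the others (196 to 709), and no resistant array reached the parental range. The 8 resistant arrays without GSK212 are all under 34.88, so the exact size of the resistant changes depends on the 2.8 added. ITGB8 rose in resistant cells by 2.75 ± 0.46 with 10 nM GSK212 (adjusted p = 0.000169) up to 2.98 ± 0.46 with the 0.1 µM combination (adjusted p = 2.79e-05). In parental cells it rose by 1.36 ± 0.41 with the 1 µM combination (adjusted p = 0.0128) up to 3.08 ± 0.46 with 30 nM GSK212 (adjusted p = 7.01e-06). The parental 1 µM combination call ended on centring (0.66), without DMSO replicate 3 (0.84) and without combination replicate 2 (1.08). It ended also without arrays with an actin ratio over 20 (1.92, adjusted p = 0.0616), and the parental 10 nM call in a fit of only the groups compared (1.99, adjusted p = 0.0516). With the mean of its 5 probe sets 1 of 4 resistant calls was left, that with 30 nM GSK212 (range 0.70 to 1.40), and the 4 parental calls held.

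ITGB3, the beta chain of the vitronectin receptor of melanoma, fell in parental cells with 10 nM and 30 nM GSK212 alone. None of its other changes against DMSO was called, those with the combinations included. ITGB3 gave 25.02, 21.6 and 7.43 with 0.1 µM GSK436, 34.6, 23.9 and 40.5 with 1 µM GSK436, 29.2, 32.9 and 45.5 with 10 nM GSK212, 69.9, 1.92 and 33.9 with 30 nM GSK212, 37.0, 32.8 and 2.06 with the 0.1 µM combination, 21.0, 60.8 and 6.97 with the 1 µM combination, against 26.0 and 29.9 with DMSO in resistant cells. In parental cells ITGB3 gave 36.4 and 40.6 with 0.1 µM GSK436, 35.4 and 17.6 with 1 µM GSK436, 3.86, 17.3 and 3.33 with 10 nM GSK212, 29.3 and 3.26 with 30 nM GSK212, 47.8, 10.2 and 21.0 with the 0.1 µM combination, 29.1, 33.6 and 8.97 with the 1 µM combination, against 98.7, 78.2 and 99.0 with DMSO. The parental DMSO arrays (78.2 to 99.0) were above every drug array of that line (3.26 to 47.8), while resistant signals lay between 1.92 and 69.9, on either side of their DMSO arrays. ITGB3 fell by 3.33 ± 0.83 with 10 nM GSK212 (adjusted p = 0.00292) and 2.76 ± 0.93 with 30 nM GSK212 (adjusted p = 0.037). Most of these signals are under 34.88. Both calls ended with the mean of its 7 probe sets (-0.81 and -0.57), and the 30 nM call ended when any 1 DMSO array (-2.70 to -2.87) or 30 nM replicate 3, which had an actin ratio over 20 (-1.55), was left out. The 30 nM call ended also with nothing added to the signal (-3.23, adjusted p = 0.0621) and without limma's intensity trend (adjusted p = 0.0501). ITGA5, the alpha chain of the fibronectin receptor, ran from 99.3 to 388 with no call, and ITGA8 and ITGA2B had medians under 34.88 with no call.

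ITGB1, the beta chain shared by most alpha chains, ran from 944 to 5439. Its signals were 944 and 1797 with 0.1 µM GSK436 and 1682 and 1454 with 1 µM GSK436, against 3534, 4024 and 2498 with DMSO in parental cells. ITGB1 fell by 1.33 ± 0.34 (adjusted p = 0.00366) and 1.07 ± 0.34 (adjusted p = 0.016) at these doses and was called nowhere else against DMSO. All 4 of these GSK436 arrays had an actin ratio over 20, and with that ratio in the fit both calls ended (-0.68 and -0.53, adjusted p = 0.0711 and 0.133). Without 0.1 µM replicate 2 the first parental call ended (-0.87), and without replicate 3 of 1 µM (-0.97) or DMSO replicate 2 (-0.92) the 1 µM call. The mean of its 7 probe sets also ended both (-0.58 and -0.64), and quantile normalization the 1 µM call (-0.93).

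ITGA4, which binds VCAM1 and fibronectin, fell in parental cells with 1 µM GSK436 by 1.73 ± 0.47 (adjusted p = 0.00559), with 60.8 and 40.7, against 227, 219.8 and 100.2 with DMSO. ITGA9, a related alpha chain, had a median under 34.88 and was never called. All 3 of the other ITGA4 probe sets had the same sign, and the call ended without 1 µM replicate 3 (-1.45, adjusted p = 0.104). ITGB7 gave 4.75, 12.8 and 31.4 with 0.1 µM GSK436, 12.5, 23.2 and 2.69 with 1 µM GSK436, 3.84, 23.1 and 2.52 with 10 nM GSK212, 11.3, 8.92 and 2.82 with 30 nM GSK212, 21.7, 37.9 and 21.2 with the 0.1 µM combination, 31.7, 3.52 and 7.35 with the 1 µM combination, against 5.34 and 1.66 with DMSO in resistant cells. In parental cells ITGB7 gave 81.7 and 125 with 0.1 µM GSK436, 99.3 and 97.9 with 1 µM GSK436, 107, 123 and 111 with 10 nM GSK212, 66.2 and 66.0 with 30 nM GSK212, 95.8, 73.9 and 85.5 with the 0.1 µM combination, 108, 92.2 and 65.4 with the 1 µM combination, against 39.4, 48.2 and 50.9 with DMSO. Every parental array (39.4 to 125) was above every resistant one (1.66 to 37.9), and all 15 parental drug arrays were above the DMSO arrays of that line without a call (0.50 to 1.26). ITGB7 rose by 2.26 ± 0.69 with the 0.1 µM combination in resistant cells (adjusted p = 0.0335), over DMSO signals that lie near the 2.8 added. That call ended on centring (1.81), with quantile normalization (1.99), with the actin ratio in the fit (1.97), without arrays with an actin ratio over 20 (2.37) and without any 1 array of either group (1.82 to 2.69). Of the 7 leukocyte integrin genes 6 had a median at or under 34.88, namely ITGB7 and the never called ITGAD, ITGAL, ITGAM, ITGAX and ITGB2. The other, ITGAE, ran from 1050.3 to 1941 and was never called.

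Whether a drug changed a member differently in the clone than in its parent was tested as the change in resistant minus the change in parental cells. Over the 6 treatments 12 such differences were called. With 0.1 µM GSK436, 2 members were called (both higher), against 4.2% of all genes (1.91% higher, 2.29% lower). With 1 µM GSK436 there were 5 (3 higher, 2 lower), against 11% (5.48% higher, 5.53% lower). With 10 nM and 30 nM GSK212 and the 0.1 µM combination 1 was called each, against 1.91%, 0.801% and 0.79%. With the 1 µM combination there were 2, against 1.06%. A share of 2 of 35 is 5.71% and of 5 of 35 is 14.3%, near the background for GSK436. At 1 µM GSK436 the difference was 4.16 ± 0.84 for ITGA2 (adjusted p = 0.00105), 2.11 ± 0.42 for ITGA6 (adjusted p = 0.00101), 2.09 ± 0.67 for ITGA4 (adjusted p = 0.0335), -1.46 ± 0.44 for LAMA5 (adjusted p = 0.0241) and -1.94 ± 0.55 for LAMB2 (adjusted p = 0.0163). At that dose each of the 5 was called against DMSO in parental and none in resistant cells. At 0.1 µM it was 1.59 ± 0.42 for ITGA6 (adjusted p = 0.0208) and 1.00 ± 0.30 for ITGB5 (adjusted p = 0.0463). With the mean of all probe sets the ITGB5 difference was 0.06 (adjusted p = 0.969), and the calls of ITGA6 at 0.1 µM (1.45, adjusted p = 0.0702) and of ITGA4 at 1 µM (1.52, adjusted p = 0.149) ended. On centring the calls of ITGA6 at 0.1 µM (2.00), ITGA4 (2.57) and LAMA5 (-0.98) ended. The parental GSK436 arrays had actin ratios of 37.2 and 37.5 at 0.1 µM, and of 23.3 and 32.6 at 1 µM. The refit without high-ratio arrays leaves none of them, so it could not be run for the GSK436 differences.

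**Figure D4:**
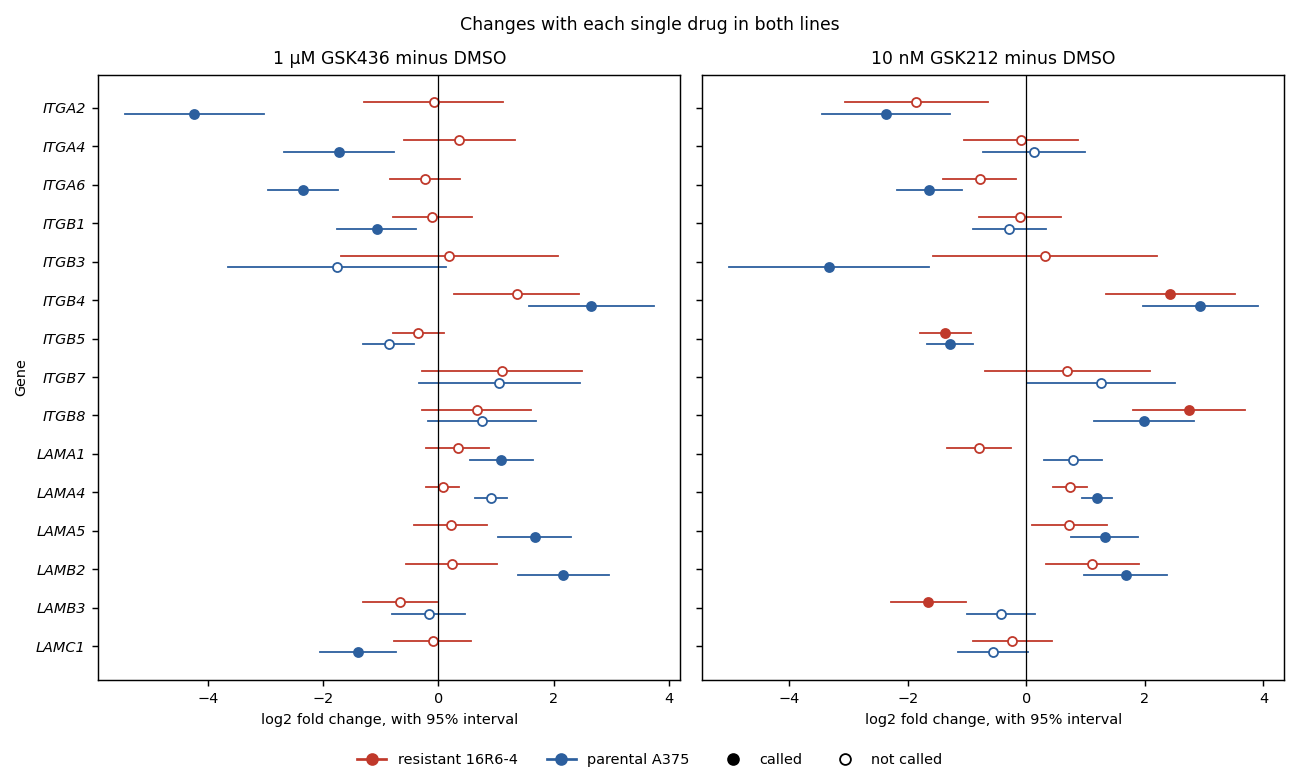
Log2 fold change of the 15 called genes with 1 µM GSK436 (left) and 10 nM GSK212 (right) against DMSO, with 95% intervals, for resistant (red) and parental cells (blue), and filled points for calls. At 1 µM GSK436 ITGA2 changed by -0.08 in resistant and -4.23 in parental cells, and with 10 nM GSK212 by -1.86 and -2.36.

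Under GSK212, LAMA1 differed between the lines with all 4 treatments, by -1.59 ± 0.36 with 10 nM, -1.97 ± 0.38 with 30 nM, -1.79 ± 0.36 with the 0.1 µM combination and -2.04 ± 0.36 with the 1 µM combination (adjusted p = 0.00947, 0.00367, 0.0052 and 0.000906). LAMB3 differed with the 1 µM combination by -1.63 ± 0.42 (adjusted p = 0.0413), a call that ended on centring (-1.39) and without arrays with an actin ratio over 20 (-1.42). The size of the LAMA1 differences was about the same on centring (-1.75 to -2.05), with adjusted p of 0.0527 to 0.0917, so all 4 calls ended, as they did with the mean of both LAMA1 probe sets (-1.19 to -2.24). Of the members called in both lines in the same direction, none passed the test of the difference under GSK212 or the combinations. The 95% interval of the difference with 10 nM GSK212 was -0.51 to 2.02 for ITGB8, -1.96 to 0.95 for ITGB4, -0.66 to 0.50 for ITGB5, -1.61 to 0.50 for LAMB2, -1.11 to 2.13 for ITGA2 and 0.03 to 1.66 for ITGA6. A difference above 1 in size remains possible for all of them but ITGB5, and the ITGA6 interval, before adjustment, did not hold 0.

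The combinations asked what a second drug adds at a matched dose. Against GSK436 alone in resistant cells, the 0.1 µM combination called 5 members (1 higher, 4 lower; 4.64% of all genes) and the 1 µM combination 5 (2 higher, 3 lower; 5.54% of all genes). ITGB8 was higher by 2.52 ± 0.41 and 2.28 ± 0.41, at 0.1 and 1 µM. At these doses ITGB5 was lower (log2 changes of -1.62 ± 0.19 and -1.56 ± 0.19), as were ITGA2 (-1.68 ± 0.53 and -2.10 ± 0.53) and LAMA1 (-1.11 ± 0.24 and -1.41 ± 0.24). With the mean of all probe sets the calls of ITGB8 (0.03 and 0.11), ITGB5 (-0.95 and -0.73) and LAMA1 (-0.69 and -0.52) ended at both doses. The ITGA2 call at 0.1 µM ended when any 1 array but GSK436 replicate 3 was left out of its groups (-1.36 to -1.80), and on centring or with quantile normalization (-1.72 and -1.59). LAMB3 was lower at 0.1 µM (-1.0, adjusted p = 0.0166), a call that ended without combination replicate 1 (-0.73) or GSK436 replicate 3 (-0.90). LAMB2 was higher by 1.34 ± 0.35 at 1 µM (adjusted p = 0.00768). In parental cells the 0.1 µM combination called 2 members against GSK436 alone (1.26% of all genes), ITGB1 higher by 1.26 ± 0.34 (adjusted p = 0.0484) and ITGB8 higher by 1.91 ± 0.46 (adjusted p = 0.0375), and both calls ended with the actin ratio in the fit (0.63 and 1.40) and with the mean of all probe sets (0.56 and 0.28). They ended too without GSK436 replicate 2 or combination replicate 2 or 3 (0.79 to 1.14 for ITGB1 and 1.71 to 1.90 for ITGB8), and the ITGB8 call also without GSK436 replicate 3 (1.92). The 1 µM combination called 0 there against GSK436 (limma, 4 at an unadjusted p under 0.05; 0.0167% of all genes).

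Against 10 nM GSK212 alone, limma called 0 members for either combination in either line, with 1 and 4 members at an unadjusted p under 0.05 in resistant and 2 and 6 in parental cells for the 0.1 and 1 µM combinations. Of all genes 0.00556% and 0.562% were called in resistant and 0.00556% and 0.345% in parental cells. The higher dose of a drug against its lower dose also called 0 members in 4 comparisons. At an unadjusted p under 0.05 limma had 1 member for GSK436 and 0 for GSK212 in resistant cells, and 5 and 2 in parental cells, while 0.111%, 0%, 0.256% and 0% of all genes were called, in that order.

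Of the 35 genes 20 were called in none of the 13 comparisons. For 14 of them the median signal was at or under 34.88. ITGA3, ITGA5, ITGAE, ITGAV and LAMB1 were over 34.88 on every array, and ITGA10 on 30 of 38. ITGAE varied least of these 5 in its changes, -0.09 to 0.24 in resistant and -0.17 to 0.33 in parental cells, while ITGAV reached an adjusted p of 0.016 under the fold threshold. Of 51 calls against DMSO in genes with other measured probe sets, 33 had the same sign in all other probe sets.

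Genes that link integrins to actin were taken from a list of 28, of which 27 were measured. In resistant cells 1, 2, 1 and 1 of the 27 rose and 0, 0, 1 and 1 fell with 10 nM GSK212, 30 nM GSK212, the 0.1 µM and the 1 µM combination. The list's median change ran from -0.08 to 0.42 in resistant and -0.07 to 0.55 in parental cells, beside 0.05 to 0.22 and 0.17 to 0.39 for all genes. These 4 comparisons called 2.17% to 4.88% of all genes higher and 0.617% to 1.71% lower. In parental cells 3 to 5 of the 27 rose and 2 to 4 fell with each treatment, while 6.51% to 11.8% of all genes were called higher and 3.44% to 7.71% lower. Between the lines with DMSO 1 of the 27 was lower in the clone, TGFB1I1 (-1.31 ± 0.35). TNS3, a tensin that binds integrin tails, rose in resistant cells by 1.51 ± 0.14 with the 1 µM combination up to 1.67 ± 0.14 with the 0.1 µM combination, and in parental cells by 1.77 ± 0.13 with 10 nM GSK212. TLN2, a talin, rose by 1.56 ± 0.36 with 30 nM GSK212 in resistant cells and by 2.08 ± 0.33 to 2.60 ± 0.36 with the parental treatments. LPXN, an adaptor of focal adhesions, fell in parental cells by 1.70 ± 0.18 with 0.1 µM GSK436 up to 2.77 ± 0.16 with the 1 µM combination, and its change differed between the lines with all 6 treatments (1.33 ± 0.25 to 2.25 ± 0.24). PXN, paxillin, fell by 1.20 ± 0.32 and 1.14 ± 0.32 with the combinations in resistant cells and by 1.75 ± 0.29 with 10 nM GSK212 in parental cells.

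Partners of laminin and its other receptors were taken from a list of 14, of which 11 were measured. With a drug 0 of the 11 fell in either line, where 0% to 1.71% of all genes fell in resistant and 3.44% to 7.71% in parental cells, so that 0 of 11 is near the background. With DMSO SDC4, a syndecan, was lower in the clone (-1.09 ± 0.24, adjusted p = 0.00349). The list's median change ran from -0.06 to 0.74 in resistant and 0.34 to 0.88 in parental cells. With GSK212 or a combination 2 of 11 rose in resistant cells each time, HSPG2 and NTN4, beside 2.17% to 4.88% of all genes. With the 6 treatments 2 to 4 of 11 rose in parental cells, beside 6.51% to 11.8% of all genes. HSPG2, which encodes the basement membrane proteoglycan perlecan, rose by 1.77 ± 0.45 with 10 nM GSK212 up to 2.25 ± 0.45 with the 1 µM combination in resistant cells, and by 2.79 ± 0.45 with 30 nM GSK212 up to 3.44 ± 0.41 with the 1 µM combination in parental cells. NTN4, a netrin that binds laminin gamma chains, rose by 1.73 ± 0.45 up to 2.71 ± 0.45 with the same pair of treatments in resistant cells, and by 1.77 ± 0.45 with 30 nM GSK212 in parental cells. AGRN, agrin, rose by 1.30 ± 0.35 and BCAM, a receptor of LAMA5-containing laminins, by 2.05 ± 0.70 with 1 µM GSK436 in parental cells. HSPG2 alone of this list differed between the lines in its change from DMSO, by -2.76 ± 0.64 with 0.1 µM GSK436 and -3.23 ± 0.64 with 1 µM GSK436.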

How the data were processed

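Total RNA of A375 and 16R6-4 cells was extracted with Trizol and labelled for Affymetrix arrays, per the labels' protocols. The authors deposited linear MAS5 signal intensities of 54675 probe sets per array. MAS5 comes from the submitters' processing notes, without a version. Each array's scaling target is not stated in the sources used here. The trimmed mean, a mean of signal without its extreme values, ran from 149.84 to 149.96 over the 38 arrays. Values were taken as deposited and transformed to log2(signal + 2.8), where 2.8 is the 10th percentile of all values. This understates changes of low signals.

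Of the probe sets, 41097 named 1 gene in the platform annotation, 1801 several and 11777 none, and only the first kind was used. Of these, 41043 matched RefSeq and 0 symbols were updated. Each gene was represented by its brightest probe set on average, and 17986 of 19775 genes passed the filter of at least 2 arrays over the pooled median of 34.88. All 35 members passed, LAMB4 and ITGB2 on only 2 arrays. limma 3.58.1 (lmFit and eBayes with a trend, R 4.3.3, package data.table, version 1.17.8) fitted all 38 arrays in 14 groups with 24 residual degrees of freedom and 31 comparisons, and p-values were adjusted by Benjamini and Hochberg within a comparison. The code was tested on simulated data.

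Members called in at least 1 of 13 comparisons are described by role, with array values for those called in at least 3 of them or with an absolute log2 change of at least 2. Up to 4 called genes of a list and comparison could be named. The members and the lists of adhesion, laminin-partner and marker genes were chosen with earlier results of these data known. Alternatives changed the pseudocount, filter, normalization, probe set rule, fit, actin covariate, replicate block and the arrays included. Promoters came from RefSeq, GRCh38.p14. Figures used Python 3.11.15 and matplotlib 3.10.9.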

Additional observations from a re-analysis of the deposited data

Results flagged for a closer look

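For 12 pairs of a member and a treatment, the change from DMSO in resistant cells minus that in parental cells passed limma's interaction test with a log2 difference of at least 1. For LAMA1 the difference was -1.59 ± 0.36 with 10 nM GSK212 (adjusted p = 0.00947), -1.97 ± 0.38 with 30 nM GSK212 (adjusted p = 0.00367), -1.79 ± 0.36 with the 0.1 µM combination (adjusted p = 0.0052) and -2.04 ± 0.36 with the 1 µM combination (adjusted p = 0.000906). LAMA1 differences were not called without resistant DMSO replicate 1 at 10 nM (-1.49) and with the 0.1 µM combination (-1.69), and without parental 30 nM replicate 3 at that dose (-1.72). Without arrays with an actin ratio over 20 those at 10 nM (-1.85) and 30 nM (-1.71) ended, and in a fit of only the groups compared those at 10 nM, 30 nM and with the 0.1 µM combination (adjusted p = 0.164, 0.174 and 0.096). For LAMB3 it was -1.63 ± 0.42 with the 1 µM combination (adjusted p = 0.0413), and this was not called without any 1 DMSO or combination array of the resistant cells, parental DMSO replicate 1 or 2, or parental combination replicate 1 (-1.41 to -1.78).

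At 0.1 µM GSK436 the difference was 1.59 ± 0.42 for ITGA6 (adjusted p = 0.0208) and 1.00 ± 0.30 for ITGB5 (adjusted p = 0.0463). The ITGB5 call ended without any 1 of the DMSO arrays, any 1 resistant GSK436 array, or parental GSK436 replicate 2 (0.81 to 1.14). Averaged over all ITGB5 probe sets the difference was 0.06 (adjusted p = 0.969), so it rests on the probe set chosen. With quantile normalization (0.92) and in a fit of only the groups compared (adjusted p = 0.17) it was not called either. The ITGA6 call ended without parental DMSO replicate 1 or 2, either resistant DMSO array, parental GSK436 replicate 2, or resistant GSK436 replicate 1 or 2 (1.39 to 1.63), with the mean of its probe sets (1.45, adjusted p = 0.0702) and in a fit of only the groups compared (adjusted p = 0.157). At 1 µM GSK436 it was 4.16 ± 0.84 for ITGA2 (adjusted p = 0.00105), 2.11 ± 0.42 for ITGA6 (adjusted p = 0.00101), 2.09 ± 0.67 for ITGA4 (adjusted p = 0.0335), -1.46 ± 0.44 for LAMA5 (adjusted p = 0.0241) and -1.94 ± 0.55 for LAMB2 (adjusted p = 0.0163).

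The ITGA2 and ITGA6 differences at 1 µM held whichever single array was left out. The parental arrays at this dose had actin ratios of 23.3 and 32.6, against 4.59 to 12 with DMSO. The refit without high-ratio arrays leaves no parental array at this dose and could not be run. Leaving out a single array does not test the part of RNA quality. Without parental GSK436 replicate 3 or resistant DMSO replicate 1 the calls of ITGA4 (1.82 and 1.77), LAMA5 (-1.21 and -1.37) and LAMB2 (-1.93 and -1.43) ended. The LAMB2 call ended also without parental DMSO replicate 2 (-1.63), the LAMA5 call without parental DMSO replicate 1 or 2 (-1.27 and -1.41) or resistant GSK436 replicate 3 (-1.41), and the ITGA4 call without parental DMSO replicate 1 or 2 (1.89 and 1.92) or resistant GSK436 replicate 2 or 3 (1.99 and 2.12).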

How the results depend on the processing

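Of 1905 refits of 102 called member values, 1658 kept direction and call, 247 kept the direction only and 0 reversed. Losses were 45 with the mean of all probe sets, 23 on centring and 106 of 608 with 1 array left out. With the actin ratio in the fit the count with 0.1 µM GSK436 in parental cells was 4 in place of 7, and over the doses 1 in place of 0. With array weights it was 1 in place of 0 for 0.1 µM GSK436 in resistant cells, 25 in place of 12 over the line differences, 21 in place of 12 over combinations against single drugs and 1 in place of 0 over the doses. Without arrays with an actin ratio over 20 it was 3 in place of 7 for 30 nM GSK212 in resistant cells. With the mean of all probe sets it was 5 in place of 8 for the 0.1 µM combination in resistant cells, 4 over the line differences and 6 over the combinations. Centring gave 4 line differences. The causes of these shifts were not tested.

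Leaving out 1 array gave 0 to 0, 0 to 0, 3 to 4, 4 to 8, 4 to 7 and 5 to 7 calls for the resistant treatments, in the order of the report, and 6 to 8, 7 to 10, 9 to 10, 4 to 8, 7 to 9 and 7 to 10 for the parental ones. It gave 4 to 5 between the lines, 4 to 13 over the line differences, 10 to 15 over the combinations and 0 to 1 over the doses. Counts moved over 1.5 times without parental 30 nM replicate 3 (4) and, in resistant cells, without DMSO replicate 2 or 30 nM replicate 1 at 30 nM (4 each), and without DMSO replicate 2 (4), DMSO replicate 1 (5) or combination replicate 1 (5) with the 0.1 µM combination. Line differences fell to 4 without resistant DMSO replicate 1, 6 without parental DMSO replicate 2 and 7 without parental DMSO replicate 1, and the 1 dose call came without parental 1 µM GSK436 replicate 2.

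Arrays share replicate numbers across groups, but of 224 same-numbered pairs 16 had deviations correlated over 0.1 (median 0.00927), so the numbers were not taken as pairing. The replicate block gave 11 line differences in place of 12 and 16 combination calls in place of 12. It ended 2 of 102 calls, the ITGB5 difference at 0.1 µM GSK436 (0.99, adjusted p = 0.0561) and the LAMB3 difference with the 1 µM combination (-1.63, adjusted p = 0.0514). Signals near background limit the 16 genes with a median at or under 34.88.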
